A study of Mus musculus with 7 samples.

Results

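The insulin-like growth factor (IGF) genes were examined in oligodendroglia from mouse brain, as 10 genes chosen by name among the 49315 genes of the count table. They were the ligand genes Igf1 and Igf2, the receptor genes Igf1r and Igf2r, and the binding protein genes Igfbp2, Igfbp3, Igfbp4, Igfbp5, Igfbp6 and Igfbp7. Of these, 9 had enough counts to be tested and Igfbp6 did not. The control group held 3 libraries of cells with the genotype Sox9-wt, and the Sox9-tg group held 4 libraries of cells that overexpressed the transcription factor Sox9. By the title of the series these are NG2 glia taken soon after birth, the dividing progenitors of oligodendrocytes, and the study looked for genes that respond to Sox9. The sources used here do not give the promoter that drove the transgene, the age in days, the sex or any sorting step. The titles call the libraries biological replicates without naming animals or cultures, and the p-values rest on how far these libraries spread, which may in part be technical.

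IGF1 and IGF2 are secreted growth factors that signal mainly through the tyrosine kinase receptor encoded by Igf1r, by way of the insulin receptor substrates and the PI3K, AKT and mTOR kinases. The Igf2r product has no kinase and carries IGF2 to lysosomes, where the ligand is degraded. The binding proteins hold the ligands outside the cell, and proteases such as PAPP-A release them by cutting the binding proteins. In the brain, IGF signalling is known for supporting the survival, growth and maturation of oligodendrocyte progenitors.

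Library totals ran from 15768472 to 30507326 gene counts. Levels are in CPM, counts scaled to a common library total, with the SD given as ± (n = 3 control and n = 4 Sox9-tg libraries). A log2 fold change above 0 means a higher level with the transgene, and each adjusted p is from edgeR's quasi-likelihood test, adjusted by Benjamini-Hochberg over 16616 genes. Sox9 itself ranged from 239 to 353 CPM among controls and from 2207 to 3597 CPM among Sox9-tg libraries, so every library matched its label. Markers of the labelled lineage were present, with Pdgfra, the PDGF receptor gene of NG2 glia, from 409 to 453 CPM among controls and from 1303 to 1538 CPM among Sox9-tg libraries. The summed level of 10 NG2 glia markers ranged from 4115 to 5187 CPM among controls and from 9923 to 13900 CPM with the transgene, and that of 10 myelin genes 146.5 to 295.7 and 838 to 5264 CPM. Markers of other cells were present too, at 3461 to 5667 and 2119 to 4163 CPM for 12 neuronal genes and 2419 to 4382 and 1636 to 2374 CPM for 10 astrocyte genes. In bulk RNA, fewer cells of a type and less RNA per cell cannot be told apart.

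The upstream DNA of 4 members is shown because these are the ligand genes and the neighbouring pair with the highest binding protein levels. Igfbp2 (chromosome 1, 72824503 to 72852474, plus strand) and Igfbp5 (chromosome 1, 72857932 to 72874884, minus strand) face each other tail to tail with 5457 bases between them. Sequences are from RefSeq on GRCm38.p6, which held a promoter for all 10 members, and run 5′ to 3′ on the strand of the gene. A SOX-type core was searched for in the 250 bases before each RefSeq start on both strands, as CAATG or CAAAG with A or T at both of the bases just before it, which makes 8 forms. Matches are in capitals, and a stretch inside an annotated exon is given only around its match. The stretches lie at chr10:87860915-87860941 and chr10:87860985-87861011 (Igf1, plus), chr7:142661306-142661521 (Igf2, minus), chr1:72824230-72824479 (Igfbp2, plus) and chr1:72874885-72875115 (Igfbp5, minus).
Igf1, distal match: gcgtggtggtCTTTGAAacatagctca
Igf1, proximal match: cgcctgctggCTTTGTActctgaggct
Igf2: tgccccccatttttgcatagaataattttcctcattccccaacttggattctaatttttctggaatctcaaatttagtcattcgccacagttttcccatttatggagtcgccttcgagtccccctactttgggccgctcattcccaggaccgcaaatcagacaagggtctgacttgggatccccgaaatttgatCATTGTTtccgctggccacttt
Igfbp2: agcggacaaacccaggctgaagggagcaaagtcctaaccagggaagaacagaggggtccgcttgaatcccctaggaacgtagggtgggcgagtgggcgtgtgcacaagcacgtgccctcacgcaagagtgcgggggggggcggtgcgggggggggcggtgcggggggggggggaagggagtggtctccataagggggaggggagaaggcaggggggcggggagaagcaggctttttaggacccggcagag
Igfbp5: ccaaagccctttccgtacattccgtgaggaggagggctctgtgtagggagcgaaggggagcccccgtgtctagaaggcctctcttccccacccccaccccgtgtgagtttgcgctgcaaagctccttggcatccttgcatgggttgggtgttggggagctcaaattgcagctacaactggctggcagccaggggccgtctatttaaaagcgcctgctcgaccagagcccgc

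Of the 14 member windows, 2 held a match, the Igf1 window with 2 matches and 1 of the 4 windows of Igf2, against 21.8% of all 32851 windows of that length. The Igf1 matches began 186 and 116 bases before the RefSeq start, and the Igf2 match 56 bases before it. All 250 bases of the Igf1 window lay inside annotated exons, within the span given for the gene below. The windows of the other 8 members held none of these letters.

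None of the 9 tested members passed the test between Sox9-tg and control libraries, whereas 13.5% of all tested genes did. At an unadjusted p under 0.05 the count was 0 of 9 as well, and DESeq2 and limma-voom called 0 of the members they tested. The libraries of both groups overlapped in all 9, while 24.5% of all tested genes had groups that did not overlap. The members' median log2 fold change was -0.12, against -0.01 for all tested genes, and the median size of the change without its sign was 0.29 against 0.28. With 9 genes, these shares and medians describe the members and are not a test of them.

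**Figure D1:**
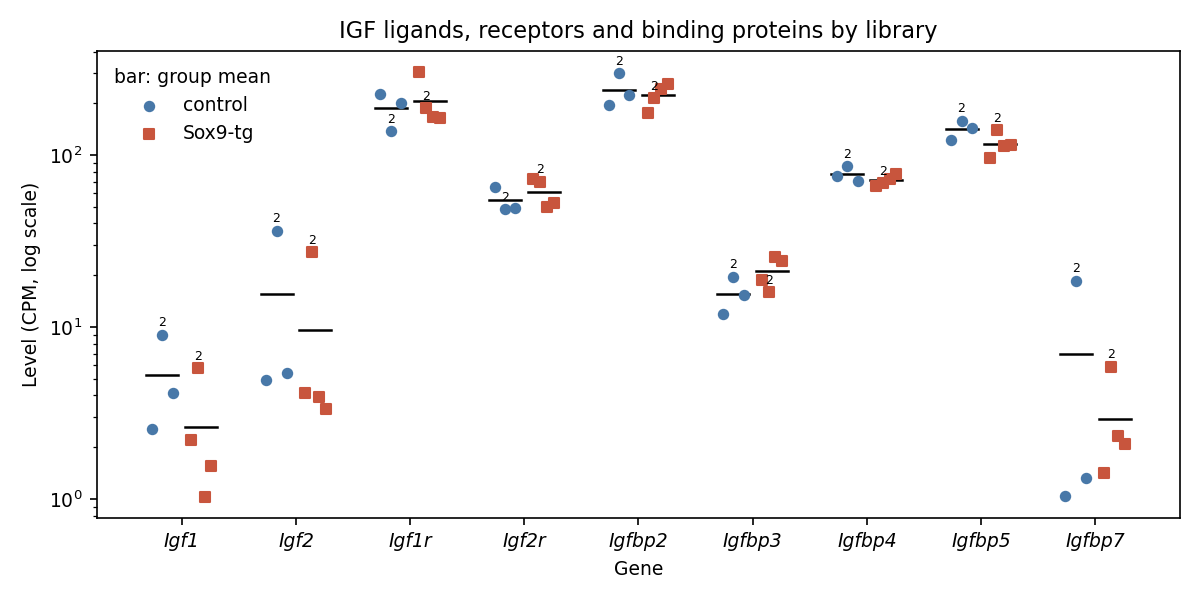
Level of 9 members in each library, in CPM on a log axis; circles are control and squares Sox9-tg libraries, black bars are group means, and the digit 2 marks the libraries numbered 2. The groups overlap for every gene shown, and in Igf1, Igf2, Igfbp5 and Igfbp7 the library numbered 2 is the highest of its group. In Igfbp5 it is so by less, at 1.19 and 1.29 times the mean of the others of its group. Igfbp6 is left out because 1 library had no count.

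Among the ligands, Igf2 (chromosome 7, 142650766 to 142666816, minus strand), the fetal growth factor expressed from the paternal allele in most tissues, had the higher level. It was at 4.94, 36.4 and 5.37 CPM in control libraries 1 to 3 and at 4.15, 27.1, 3.93 and 3.32 CPM in Sox9-tg libraries 1 to 4. A single library of each group, the one numbered 2, was 7.06 and 7.14 times the mean of the others of its group, and the remaining 5 libraries lay between 3.32 and 5.37 CPM. The log2 fold change was -0.70 (SE 0.92, adjusted p = 0.687), with a 95% interval from -2.78 to 1.39, and it was 0.89 without control replicate 2. That was the only sign change among 15 alternatives, and it leaves Sox9-tg replicate 2 in. With both libraries numbered 2 left out, a choice made after the data were seen, it was -0.43 (SE 0.24, adjusted p = 0.318). With the replicate number as a block it was -0.37 (SE 0.165, adjusted p = 0.163). The antisense gene Igf2os, whose exons overlap those of Igf2, had at most 6 counts in a library. Another annotated gene, Gm49394, shares exons with Igf2 on the same strand and was not analysed here.

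Igf1 (chromosome 10, 87858265 to 87937042, plus strand), which in brain tissue is known from microglia and some neurons, was at 2.56, 9.003 and 4.11 CPM in control libraries. In Sox9-tg libraries it was at 2.21, 5.74, 1.03 and 1.56 CPM. The libraries numbered 2 were again the highest of each group, and the remaining Sox9-tg libraries lay below every control library. The groups overlapped through Sox9-tg replicate 2, with a log2 fold change of -0.99 (SE 0.61, adjusted p = 0.349, 95% interval -2.38 to 0.40). Without Sox9-tg replicate 2 it was -1.69, with an adjusted p = 0.0728.

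Igf1r (chromosome 7, 67952827 to 68233668, plus strand), the signalling receptor, was well expressed in all libraries. Its level was 226.7, 138 and 200.5 CPM in control and 304.4, 187.4, 167.4 and 165.1 CPM in Sox9-tg libraries. Sox9-tg replicate 1 stood above all others, and the other Sox9-tg libraries lay within the control range. Its log2 fold change was 0.13 (SE 0.25, adjusted p = 0.799, 95% interval -0.44 to 0.70), and it was -0.12 without that library and -0.05 without control replicate 2.

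Igf2r (chromosome 17, 12682406 to 12769664, minus strand), the clearance receptor, was at 65.6, 48.5 and 49.3 CPM in control and 72.98, 69.9, 49.9 and 52.6 CPM in Sox9-tg libraries. Libraries of both groups lay near 50 CPM and others of both lay higher. The difference was 0.17 on the log2 scale (SE 0.18, adjusted p = 0.584, 95% interval -0.23 to 0.58). Airn, the antisense RNA that runs through this gene without sharing an exon, had 9 to 44 counts a library. Insr, the related insulin receptor gene, averaged 113.5 ± 18.5 CPM among controls and 107.9 ± 29.1 CPM with the transgene and did not pass (adjusted p = 0.864).

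Igfbp2, whose product binds both ligands and which is abundant in the developing brain, was the most highly expressed member. Its level was 194.5, 299.4 and 223.5 CPM in control and 175.6, 215.2, 243.8 and 260.2 CPM in Sox9-tg libraries. Sox9-tg replicate 1 lay just below the control range and the other Sox9-tg libraries within it, and the log2 fold change was -0.10 (SE 0.19, adjusted p = 0.799). The 95% interval ran from -0.52 to 0.33. The sign turned when control replicate 2 was left out (0.11), and the value was 3.81e-05 when Sox9-tg replicate 1 was.

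Igfbp4 (chromosome 11, 99041244 to 99054392, plus strand), a binding protein that PAPP-A cuts, varied least between libraries. It was at 75.2, 85.8 and 70.9 CPM in control and 66.1, 68.7, 72.7 and 77.8 CPM in Sox9-tg libraries, so that the highest library was 1.3 times the lowest. The difference was -0.12 on the log2 scale (SE 0.11, adjusted p = 0.557), and its 95% interval of -0.37 to 0.14 was the narrowest of the members.

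Igfbp5, which encodes a binding protein that also attaches to matrix and is cut by proteases of the PAPP-A family, was at 122.9, 158.6 and 143.6 CPM in control libraries. In Sox9-tg libraries it was at 96.8, 139.6, 113.0 and 114.2 CPM. Most Sox9-tg libraries lay below all controls, but replicate 2 lay within their range. Its log2 fold change was -0.29 (SE 0.15, adjusted p = 0.249, 95% interval -0.63 to 0.04).

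Igfbp3 (chromosome 11, 7206086 to 7213923, minus strand), whose product is the main carrier of IGFs in blood, had values in the other direction. It was at 11.9, 19.6 and 15.3 CPM in control and 18.9, 15.9, 25.5 and 24.3 CPM in Sox9-tg libraries. Sox9-tg replicates 3 and 4 lay above every control library, and replicates 1 and 2 did not. Its log2 fold change was 0.43 (SE 0.22, adjusted p = 0.249, 95% interval -0.07 to 0.93). With both libraries numbered 2 left out it was 0.76 and passed the threshold (adjusted p = 0.0497), a choice of libraries made after the data were seen.

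Igfbp7 (chromosome 5, 77349240 to 77408041, minus strand), which encodes a related protein of low IGF affinity known from blood vessels, varied most between libraries. It was at 1.05, 18.6 and 1.33 CPM in control and 1.42, 5.89, 2.32 and 2.10 CPM in Sox9-tg libraries. Control replicate 2 was 15.7 times the mean of the other controls and Sox9-tg replicate 2 was 3.03 times the mean of the other Sox9-tg libraries. For Igfbp7 the log2 fold change was -1.26 (SE 0.94, adjusted p = 0.44, 95% interval -3.40 to 0.88), and it was 1.29 without control replicate 2. Exons of the RNA polymerase gene Polr2b, on the other strand, overlap those of Igfbp7, and no source used here says whether counting took strand into account. Polr2b had 1835 to 3499 counts a library and Igfbp7 18 to 572.

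Igfbp6 (chromosome 15, 102144362 to 102149511, plus strand), whose product prefers IGF2, was at the limit of detection. It had 0, 4 and 4 counts in control and 2, 3, 1 and 1 counts in Sox9-tg libraries, and no fold is given. A count of 0 in control replicate 1 allows a level of up to 0.174 CPM, from counting error alone. The only other classical binding protein gene, Igfbp1, which lies 3539 bases from Igfbp3, had 1 count in all libraries together.

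**Figure D2:**
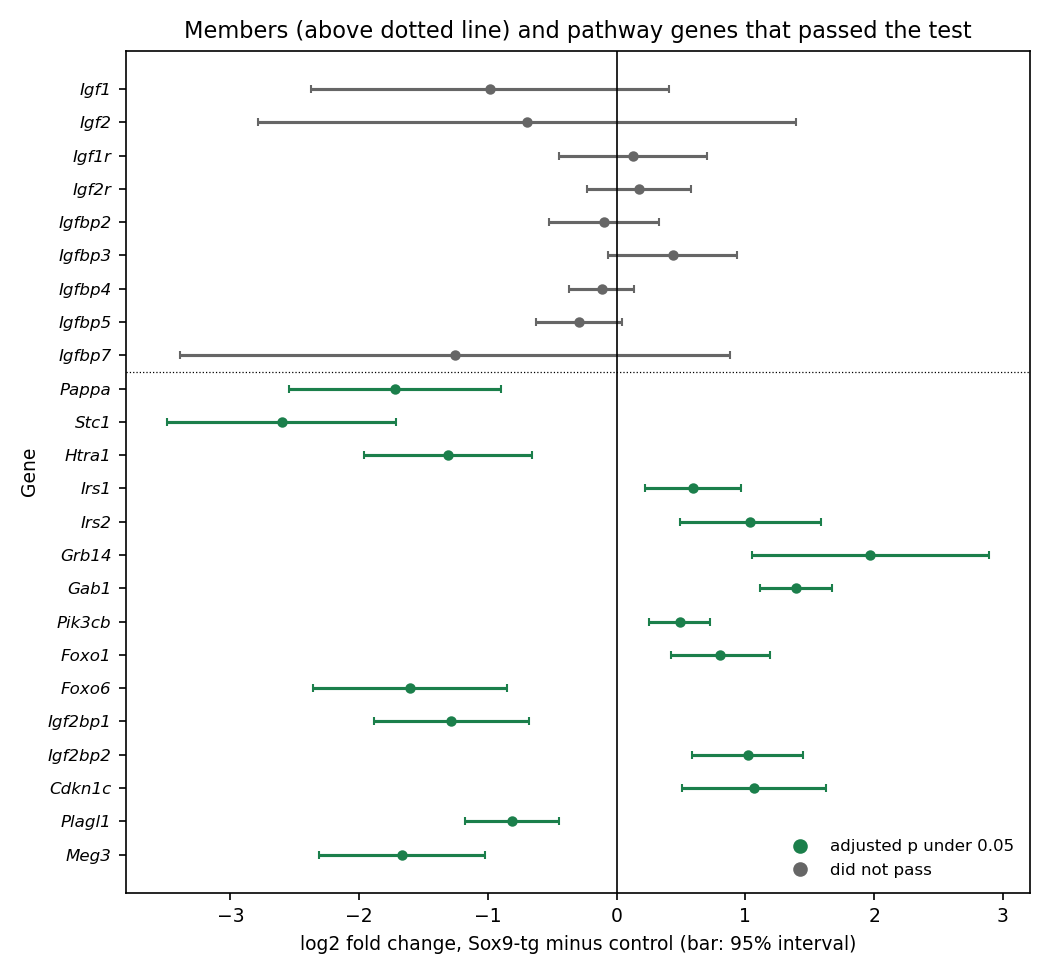
Log2 fold change of Sox9-tg minus control on the horizontal axis, with 95% intervals as bars, for the 9 tested members above the dotted line and the 15 listed pathway genes that passed the test below it. The intervals of all 9 members include 0.

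Compared per length, in TPM (transcript levels corrected for annotated exon length and scaled to a common total), the members differed widely in level. In control libraries Igfbp2 led at 396 ± 81.9 TPM, followed by Igfbp5 (72.4 ± 9.29 TPM), Igfbp4 (53.6 ± 3.53 TPM), Igf1r (34.5 ± 8.85 TPM) and Igf2r (17.9 ± 2.98 TPM). Each of these stood apart from the next without overlap of libraries, whereas the neighbours from Igf2r down through Igfbp7, Igfbp3, Igf2 and Igf1 overlapped. In Sox9-tg libraries Igfbp2 led at 359 ± 90.4 TPM without overlap. Igfbp5, Igfbp4 and Igf1r followed at 56.4, 47.7 and 35.7 TPM, with overlap between Igfbp5 and Igfbp4 and between Igfbp4 and Igf1r. Igf1r stood above Igfbp3 (20.2 ± 6.40 TPM) without overlap, and Igfbp3 overlapped Igf2r (19.1 ± 2.08 TPM).

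Igfbp2 made up most of the binding protein transcripts in every library. Its share of their summed TPM was 71.5 ± 0.932% in control and 72.9 ± 2.37% in Sox9-tg libraries, and the shares of Igfbp5 were 13.2 ± 1.52% and 11.7 ± 1.75%. The share of Igfbp3 was 2.58, 2.73 and 2.92% in control and 4.51, 3.07, 4.59 and 4.15% in Sox9-tg libraries, so its groups did not overlap. It was the only one of the 6 shares whose groups did not, it was singled out after its values were seen, and it was not tested. Igfbp7 took 6.69% in control replicate 2 and 2.94% in Sox9-tg replicate 2, against 0.587 to 1.08% elsewhere.

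Binding protein transcripts exceeded ligand transcripts in all 7 libraries, by summed TPM. The ratio was 131.5, 31.6 and 123.5 in control and 140.8, 31.1, 224.4 and 253.7 in Sox9-tg libraries, with the lowest value of each group in the library numbered 2. The ratio of Igf1r to Igf2r in TPM was 1.92, 1.58 and 2.26 in control and 2.31, 1.49, 1.86 and 1.74 in Sox9-tg libraries, so the groups overlapped.

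**Figure D3:**
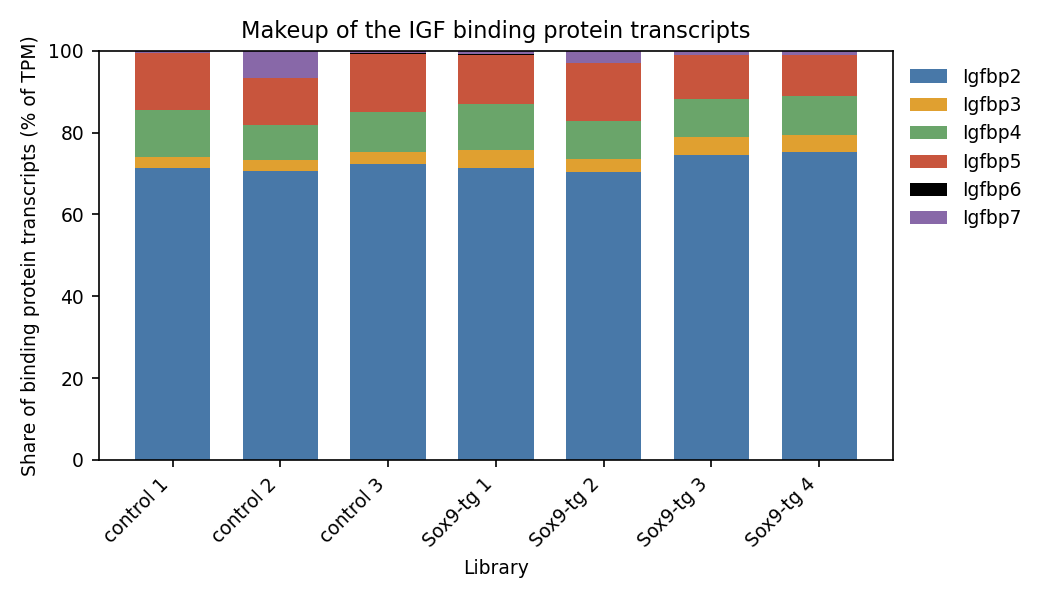
Share of each binding protein gene in their summed TPM, in percent, as 1 stacked bar for each of the 7 libraries. Igfbp2 takes 70.4 to 75.3% in every library, and the Igfbp7 share is largest in the libraries numbered 2.

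Several marker lists, of the labelled lineage and of other cells, also differed between the libraries numbered 2 and the rest. The summed level of 12 microglial markers was 121.9, 878.9 and 263.1 CPM in control and 60.4, 371.2, 130.3 and 101.1 CPM in Sox9-tg libraries. For 10 endothelial markers it was 11.4, 164.8 and 8.44 CPM and 13.2, 37.8, 12.9 and 15.3 CPM. The libraries numbered 2 were the highest of their group in both lists. They were also the highest in the sum of 10 fibroblast and meningeal markers. It was 53.3 CPM against 12.96 and 15.3 CPM in control and 30.7 CPM against 10.8 to 15.3 CPM in Sox9-tg libraries. In Sox9-tg replicate 2 that sum held Foxc1 at 8.73 CPM and Lum at 6.88 CPM. Lum was itself called higher with the transgene (adjusted p = 0.015). Slc6a13 and Aldh1a2, with 1 count each in Sox9-tg replicate 2, were not highest there. For 10 mural cell markers the range was 132.2 to 259.8 CPM in control and 103.2 to 132.2 CPM in Sox9-tg libraries. The library numbered 2 was at the top of both, but Sox9-tg replicate 4 was nearly equal to Sox9-tg replicate 2, at 131.2 CPM. Most of these 2 sums was Notch3, at 92.5 CPM in Sox9-tg replicate 2 and 106.7 CPM in Sox9-tg replicate 4. The other mural markers went both ways between these libraries. Rgs5 was at 9.13 and 3.90 CPM, and Myh11 at 0.449 and 1.12 CPM. For 8 choroid plexus markers control replicate 2 was the highest control at 33.3 CPM. Sox9-tg replicate 2 was the lowest of its group at 24.19 CPM, close to Sox9-tg replicate 4 at 24.45 CPM. That order followed Ttr, which was called higher with the transgene (adjusted p = 0.0467). Ttr was at 28.04, 9.53, 16.1 and 14.25 CPM in Sox9-tg libraries 1 to 4. Otx2 of the same list was at 5.72, 10.67, 6.89 and 8.15 CPM, the highest in Sox9-tg replicate 2. Summed lineage markers were highest in the libraries numbered 2 as well. They were at 1.52 and 2.37 times the mean of the others of the group for myelin genes and 1.24 and 1.15 times for NG2 glia. Single NG2 glia markers differed in this. In Sox9-tg replicate 2 Gpr17 was the highest of its group at 3953 CPM, whereas Pdgfra was the lowest at 1303 CPM. Olig1, Olig2 and Sox10 lay below Sox9-tg replicates 3 and 4 there. Astrocyte markers were at 1.54 and 1.02 times, and neuronal markers were lowest there, at 0.678 and 0.652 times. No marker of these lists was at 0 in all libraries, and their part in the members' levels was not tested.

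Igf1, Igf2 and Igfbp7 were the tested members that varied most between libraries, and genes with similar levels over the 7 libraries were looked for. Likeness was the root mean square distance between log2 levels centred on each gene's mean, among 12382 named genes with at least 2 CPM on average. This search was added after the values were seen. For Igf2 the nearest were Rsph1, Ppp1r32, Zmynd10, Wdr63 and Rsph4a, at distances of 0.203 to 0.294. Rsph1 and Rsph4a encode parts of the radial spokes of motile cilia, and Zmynd10 and Wdr63 serve the dynein arms of such cilia. For Igfbp7 they were Egfl7, an endothelial gene, Foxj1, the master factor of motile cilia, Arhgap27, Dnali1 and Lrrc23, at 0.347 to 0.451. For Igf1 they were Cck, Dmtn, Cfap46, Gda and Vwa5b1, at 0.192 to 0.224.

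A list of 12 motile cilia genes, written after that search, summed to 39.0, 176.4 and 39.3 CPM in control and 38.3, 114.5, 34.7 and 38.5 CPM in Sox9-tg libraries. All 12 were highest in the library numbered 2 of each group. Foxj1 was at 71.1 CPM in control replicate 2 and 45.5 CPM in Sox9-tg replicate 2, against 8.77 to 13.8 CPM in the other libraries. The list was built from the pattern, so it only describes these libraries.

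**Figure D4:**
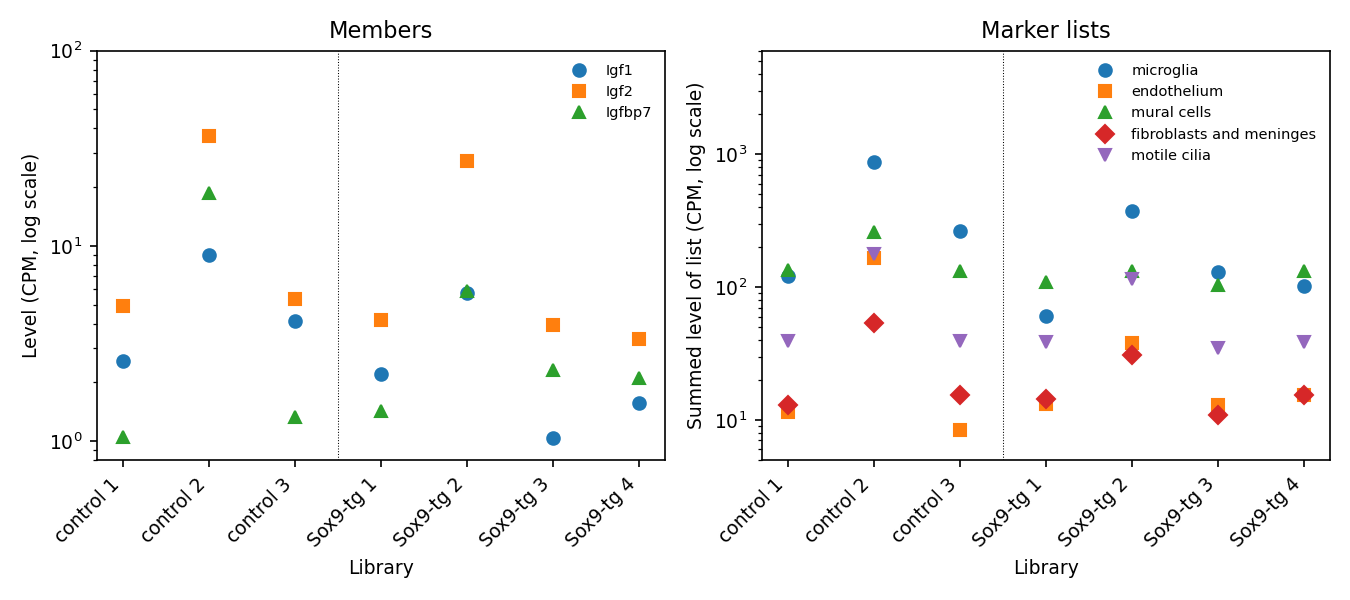
Left, levels of Igf1, Igf2 and Igfbp7 by library, and right, summed levels of 5 lists of marker genes, in CPM on log axes; the dotted line separates control from Sox9-tg libraries. Control 2 and Sox9-tg 2 are the highest of their groups for all 3 genes and for the microglial, endothelial, fibroblast and cilia lists.

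The genes around the family were read from 6 pathway lists holding 62 genes, of which 58 were tested. Of these, 8 rose and 7 fell, or 25.9% together against 13.5% of all tested genes (7.69% higher and 5.86% lower), and the median log2 fold change was 0.03. The lists were chosen with earlier results of these data known, so the share describes them and does not test them. Without control replicate 3 the count of 15 was 4, and that of all called genes was 965 against 2251. Markers of NG2 glia and of myelin differed between the groups by the ranges given above, and their part in these changes was not tested.

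Of 6 tested genes that act on ligands or binding proteins outside the cell, 3 fell and none rose, with a median of -1.09. Stc1 encodes a stanniocalcin, a secreted inhibitor of PAPP-A, and was at 14.9, 10.5 and 12.9 CPM in control and 3.52, 0.898, 1.68 and 2.29 CPM in Sox9-tg libraries. It fell by 2.60 on the log2 scale (SE 0.39, adjusted p = 0.00357). Pappa, the gene of the protease itself, was scarce at 3.72, 2.47 and 3.85 CPM in control and 1.26, 1.30, 0.580 and 0.878 CPM in Sox9-tg libraries. The log2 fold change of Pappa was -1.72 (SE 0.36, adjusted p = 0.0157), and the call was lost without control replicates 1 (0.0594) or 3 (0.0783) or Sox9-tg replicate 4 (0.0508).

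Htra1, a secreted serine protease known to cut IGF binding proteins, fell from 101 ± 40.3 to 40.7 ± 9.19 CPM (adjusted p = 0.0182). That call was lost without control replicates 2 (0.0535) or 3 (0.0783), Sox9-tg replicate 3 (0.0542) or both libraries numbered 2 (0.0728). Htra1 is also known from astrocytes, whose summed markers were lower in Sox9-tg libraries by the ranges given above. Of the 10 astrocyte markers, 4 fell and 6 did not pass, and their part in the fall of Htra1 was not tested. Igfbpl1, a binding protein-like gene of the developing brain, had a higher mean CPM than any member in both groups. It was at 764.1, 368.4 and 606.0 CPM in control and 487.4, 114.1, 334.1 and 327.0 CPM in Sox9-tg libraries. The groups overlapped and it did not pass (log2 fold change -0.88, SE 0.42, adjusted p = 0.227), but it passed with both libraries numbered 2 left out (0.0479). Markers of neurons were lowest in Sox9-tg replicate 2 as well, at 2119 CPM, and their part in the level of Igfbpl1 was not tested.

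Of 14 tested insulin-family receptor and adaptor genes, 4 rose and none fell, with a median of 0.11. Gab1, a docking protein that recruits PI3K, was at 83.99, 94.5 and 98.7 CPM in control and 214.5, 248.2, 257.5 and 251.2 CPM in Sox9-tg libraries. It rose 2.63-fold (log2 fold change 1.39, SE 0.12, adjusted p = 0.000311), with no overlap between the groups. Grb14, an adaptor that restrains insulin receptor signalling, rose from 3.57 ± 1.93 to 14.2 ± 4.996 CPM (adjusted p = 0.0141, or 0.0672 without control replicate 3).

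The insulin receptor substrate genes Irs1 and Irs2, which pass the signal of both receptors to PI3K, rose as well. Irs2 was at 74.98, 105.5 and 108.4 CPM in control and 129.8, 269.4, 195.8 and 196.5 CPM in Sox9-tg libraries (adjusted p = 0.0232). Irs1 was at 50.4 ± 10.4 and 76.1 ± 9.98 CPM (adjusted p = 0.044). The call of Irs2 was lost without control replicates 1 (0.082) or 3 (0.0672), Sox9-tg replicates 3 (0.0524) or 4 (0.0509), or both libraries numbered 2 (0.0528). Irs1 kept its call without control replicate 1. It was lost without control replicates 2 (0.105) or 3 (0.159), without any of Sox9-tg replicates 1 to 4 (0.0646, 0.0742, 0.0722 and 0.0601), without both libraries numbered 2 (0.147), and under upper-quartile factors (0.0565) or total counts (0.0505).

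Of 18 tested PI3K, AKT and FOXO genes, 2 rose and 1 fell, with a median of -0.03. That is 16.7% together, near the 13.5% of all tested genes. Foxo1, a transcription factor that AKT keeps out of the nucleus, rose from 28.7 ± 6.19 to 50.3 ± 5.81 CPM (adjusted p = 0.0157, or 0.0552 without control replicate 3), and Pik3cb, a catalytic subunit of PI3K, rose from 21.8 ± 0.844 to 30.6 ± 1.74 CPM (adjusted p = 0.0168). Foxo6, a brain-enriched relative, fell from 109 ± 19.5 to 35.9 ± 14.6 CPM (adjusted p = 0.0148). Pik3cb was lost without control replicates 1 (0.0631) or 3 (0.0874) or Sox9-tg replicate 4 (0.0503), and Foxo6 without control replicates 1 (0.0611) or 3 (0.06). None of the 9 mTOR genes passed, against 13.5% of all tested genes, and their median was -0.01. With 9 genes, that share is only a description.

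The genes of the IGF2 mRNA-binding proteins, which bind Igf2 and many other transcripts in fetal cells, moved in opposite directions. Igf2bp1 was at 15.2, 9.49 and 11.1 CPM in control and 6.88, 3.79, 4.90 and 4.00 CPM in Sox9-tg libraries, a log2 fold change of -1.29 (SE 0.27, adjusted p = 0.0145). Igf2bp2 was at 9.997, 13.3 and 8.18 CPM in control and 17.9, 21.3, 23.1 and 22.8 CPM in Sox9-tg libraries, a log2 fold change of 1.02 (SE 0.19, adjusted p = 0.00938). Neither gene's groups overlapped, and Igf2bp1 lost its call without control replicates 1 (0.0626) or 3 (0.0516). Igf2bp3 was at 23.2 ± 3.16 and 29.9 ± 3.21 CPM and did not pass (adjusted p = 0.124).

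Of 8 imprinted growth genes, 1 rose and 2 fell. Cdkn1c, an inhibitor of cell cycle kinases, rose from 33.8 ± 4.56 to 70.7 ± 20.6 CPM (adjusted p = 0.0219). Meg3, a long non-coding RNA, fell from 523 ± 180 to 164 ± 54.0 CPM (adjusted p = 0.00624), and Plagl1, a zinc finger factor, from 30.3 ± 3.21 to 17.2 ± 3.18 CPM (adjusted p = 0.0118, or 0.0572 without control replicate 3). Cdkn1c lost its call without control replicates 2 (0.0633) or 3 (0.0964), Sox9-tg replicates 3 (0.0582) or 4 (0.0541), or both libraries numbered 2 (0.102).

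H19, the non-coding RNA that shares control elements with Igf2 and lies 72.6 kb from it, had another pattern across libraries. It was at 21.4, 24.6 and 25.3 CPM in control and 18.4, 172.4, 64.6 and 59.9 CPM in Sox9-tg libraries. The control libraries were close together, control replicate 2 included, and Sox9-tg replicate 1 lay below them while the other Sox9-tg libraries lay above. The log2 fold change of H19 was 1.73 (SE 0.60, adjusted p = 0.0991), and without Sox9-tg replicate 1 it was 2.05 and passed (0.012). H19 also passed without the filter on low counts (0.0481).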

How the data were processed

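The authors deposited whole-number read counts per gene for 3 control and 4 Sox9-tg libraries. The submitters' processing notes name the build GRCm38 and list STAR 2.5.2b, Trimmomatic 0.36, Subread 1.5.2, DESeq, DESeq2 and featureCounts. The role of each, the annotation release and whether strand was used were not given in the sources used here. Reads of overlapping or antisense genes can therefore not be told apart with certainty.

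Genes were filtered with filterByExpr with a minimum count of 10 and a minimum total of 15, leaving 16616 genes. Libraries were scaled with TMM factors, and 3 counts in a library came to 0.097 to 0.193 CPM. Groups were compared in R 4.3.3 with the two-sided quasi-likelihood F test of edgeR 4.0.16, with group as the only term, Benjamini-Hochberg adjustment over all tested genes and a threshold of 0.05. The SE was the log2 fold change divided by the square root of F, and intervals are at 95%. TPM used exon-union lengths from GENCODE M21 (GRCm38), which held 49056 of the 49315 gene IDs.

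Data were simulated for the same 16616 genes and libraries, with 50 genes changed at each fold. The test recovered 4% of genes changed 1.5-fold, 52% at 2-fold, 70% at 3-fold and 72% at 4-fold, and 5.71% of calls were false. Far fewer genes were changed there than the 2251 called in the real data, which makes the adjusted threshold stricter. These shares therefore do not measure recovery in the real comparison.

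The members, pathway lists and marker lists were chosen with earlier results of these data known. Named genes were the members, Sox9, up to 4 called genes of each pathway list and direction, genes overlapping or neighbouring a member, and marker genes. The rule named similar genes only for members that passed, and none did. Insr, Igfbpl1, Igf2bp3 and the genes most like 3 members were named after their values were seen. Alternatives were RLE, upper-quartile and total-count scaling, no filter, DESeq2 1.42.0, limma-voom (limma 3.58.1), the replicate number as a block, leaving out each library and, added after seeing the data, leaving out both libraries numbered 2.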

Additional observations from a re-analysis of the deposited data

Results flagged for a closer look

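In the Sox9-tg group, 1 library stood far from the other 3 in 4 of the 30 genes examined this way. For independent, normally distributed values chance gives about 1 in 20. These genes share the same libraries and many were named by their values, so the count is a description and not a test. Igf2 was at 27.13 CPM in Sox9-tg replicate 2, against 3.32 to 4.15 CPM in the others. Sox9-tg replicate 1 held the high value in the remaining cases: Igf1r at 304.4 CPM against 165.1 to 187.4, Insr at 150.9 CPM against 86.6 to 97.2, and Meg3 at 244.9 CPM against 128.9 to 143.5. Both receptor genes were therefore highest in the same library.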

How the results depend on the processing

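No tested member passed under other scalings or tools, without the filter, with the block or without any single library. DESeq2 gave no p for Igf2 and Igfbp7. At an unadjusted p under 0.05 the count of members was 4 without Sox9-tg replicate 2, and 0 to 3 otherwise. With both libraries numbered 2 left out, 1 member passed, Igfbp3 (log2 fold change 0.76), and the log2 fold changes of Igfbp2 (0.13), Igfbp4 (0.0007333) and Igfbp7 (0.72) changed sign. When each library was left out in turn, signs turned within the ranges -2.03 to 0.89 for Igf2, -0.12 to 0.29 for Igf1r, -0.21 to 0.11 for Igfbp2, -1.84 to 1.29 for Igfbp7 and -0.28 to 0.06199 for Insr (0.02752 without Sox9-tg replicate 3); the cause was not tested. Igfbp6 was tested only where the filter was not applied, which includes DESeq2, and by edgeR its log2 fold change was then 0.005 (SE 2.37).

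Leaving out each library gave 965 to 3169 called genes, against 2251, with over 1.5 times fewer without control replicates 1 (1261) or 3 (965) or Sox9-tg replicates 3 (1342) or 4 (1356), and 4 to 18 called pathway genes, against 15. Under upper-quartile factors and total counts, 50% and 50.7% of called genes were higher, against 56.8%. Deviations of same-numbered libraries from their group means correlated at 0.363, 0.618 and 0.0748 for numbers 1 to 3. The labels do not say that the numbers pair the libraries, so the main test left pairing out. Deviations from a mean of 3 libraries depend on each other, so these correlations cannot settle whether the numbers pair the libraries. Sox9-tg replicate 4 has no partner and was left out of the block. With the replicate number as a block, 3086 genes were called, against 1356 in the same 6 libraries without it, and 18 pathway genes. The members' count stayed at 0, with 3 at an unadjusted p under 0.05, and Igfbpl1 passed (adjusted p = 0.00701). Control replicates 1 and 2 correlated best with their own number, and control replicate 3 did not. Igf1 and Igfbp7 rested on as few as 16 and 18 counts in a library, and Igfbp6 on at most 4.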
